A study of Rattus norvegicus with 21 samples.

Results

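The comparison described here sets NBTII-FGFR1 cells after 6 h of FGF1 against the same line at 0 h, on 4 of the 21 expression arrays of the series: 2 arrays labelled 6 h and 2 labelled 0 h, chosen by line and time alone. NBTII is a rat bladder carcinoma line, and NBTII-FGFR1 is NBTII transfected with FGF receptor 1. FGF1 was given at 20 ng/ml together with heparin at 50 µl/ml. The 0 h arrays are taken as the untreated start of the time course, which their titles imply but do not state. Every array after 0 h carries FGF1, so the ligand cannot be told apart from heparin, culture time or the handling of cells and arrays. The labels do not say whether the transfected line was 1 clone or a pool, what promoter drives the receptor, or whether replicates came from separate cultures. The tests therefore speak only to the spread among the arrays at hand, and that spread may be technical in origin. Levels are log2 signals, a difference of 1 is a doubling, and each difference (6 h minus 0 h) is given ± SE with n = 2 arrays a group. The SE takes its spread from all 21 arrays and not from these 4 alone, so the 2 arrays of a group can lie further apart than it implies.

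FGF receptors are tyrosine kinases that, once bound by ligand and heparin-like sugar chains, send signals through the RAS and ERK kinases. ERK switches on immediate-early transcription factors such as those of the AP-1 family, and these switch on later genes for proteases, growth factors and adhesion proteins. In carcinoma cells this sequence is known for cell scattering, in which cells leave the epithelial sheet, and FGF signalling can drive or arrest the cell cycle depending on the cell.

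At 6 h, 3382 of 15866 probe sets (21.3%) differed from 0 h at an adjusted p under 0.05 in limma, 1489 higher (9.38%) and 1893 lower (11.9%). Centring each array on its median turned the balance, with 1715 higher and 1686 lower (from 44% to 50.4% higher), and over genes with 1248 and 1155. The rises were the larger changes. A rise of over 1 was called in 424 probe sets and a fall of over 1 in 380. Beyond 2 the numbers were 89 and 21, and beyond 3 they were 26 and 1. Counted with 1 probe set a gene, 1087 of 10411 genes rose (10.4%) and 1304 fell (12.5%), and these are the background for the gene groups below. The median difference over all genes was 0.02. "Rose" and "fell" are used only for adjusted p under 0.05. Both 6 h arrays lay above both 0 h arrays in 29.7% of probe sets and below them in 28.3%, together 58%, so groups that do not overlap are common here and are not by themselves a result.

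The transfected gene checks the labels, and 1 library went against them. Fgfr1 read 5.92 in 0 h replicate 2, 5.82 and 5.37 at 6 h, but 3.57 in 1 array, the library labelled as replicate 1 of NBTII-FGFR1 at 0 h. That value is below the 3.97 of the NBTII array at 0 h. Igfbp5, a secreted binding protein of insulin-like growth factors, read 7.51 in that library and 4.24 to 4.39 in the other 3 arrays. Vim, which encodes the mesenchymal filament vimentin, read 5.41 in it against 7.36 to 8.30 in the others. All 3 genes missed the threshold at 6 h, with differences of 0.85 ± 0.57, -1.68 ± 0.92 and 1.35 ± 0.72. The series' design text says that the control had no duplicate, whereas 2 titles name NBTII-FGFR1 at 0 h, so whether the doubted library is a replicate is not settled by the labels. Over all probe sets the 2 arrays of 0 h correlated at r = 0.995 and those of 6 h at 0.992. The next closest array to the doubted library was NBTII at 0 h (0.992), and to 0 h replicate 2 it was NBTII-FGFR1 24 h replicate 1 (0.991). Both 6 h arrays were next closest to NBTII 6 h replicate 2 (0.992 and 0.987). Values this close do not settle the label. Without the doubted library 879 probe sets were higher and 1030 lower, and 1855 of the 3382 calls (54.8%) were kept. Leaving out 6 h replicate 2 gave 795 higher and 1103 lower, and 1343 probe sets were called in every fit run in which they were tested. Counts of groups are therefore given with the doubted library and then, in parentheses or after "without", without that library. The background without that library was 652 genes higher (6.26%) and 685 lower (6.58%), and without 6 h replicate 2 it was 595 and 778. Of the genes named below, Adam10, Plat, Btc, Egfr, Fgfr2, Spry1, Enah, Rdx, Myh10, Vcl, Tyms, Cdc25b, Ncl, Cpt1a, Acadvl, Serpinb7 and Krtdap had calls that were lost without that library. Axl, Jun, Nfkbia, Krt8, Krt18, Zeb1, Dsp and Ddx21 lost theirs without 6 h replicate 2. Those of Cdh1 and Krt1 were lost without 0 h replicate 2, and those of Dut, Rrm1 and Krt13 without 6 h replicate 1. Each gene is given here under 1 array only, though its call can be lost without others too. That of Krtdap was lost without each of the 4 arrays. Across the named genes of this comparison, lost calls were most frequent without 6 h replicate 2. Bacterial poly-A spikes, which are added before labelling, averaged 6.49 to 7.07 on all 3 arrays taken at 0 h, against 5.58 to 6.02 on the remaining 18. Hybridization controls averaged 9.66 to 9.79 on the 0 h arrays and 9.29 to 9.71 on the later ones. The labels do not say whether the 0 h arrays were processed apart from the rest. The part of these shifts in the results was not tested.

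**Figure D1:**
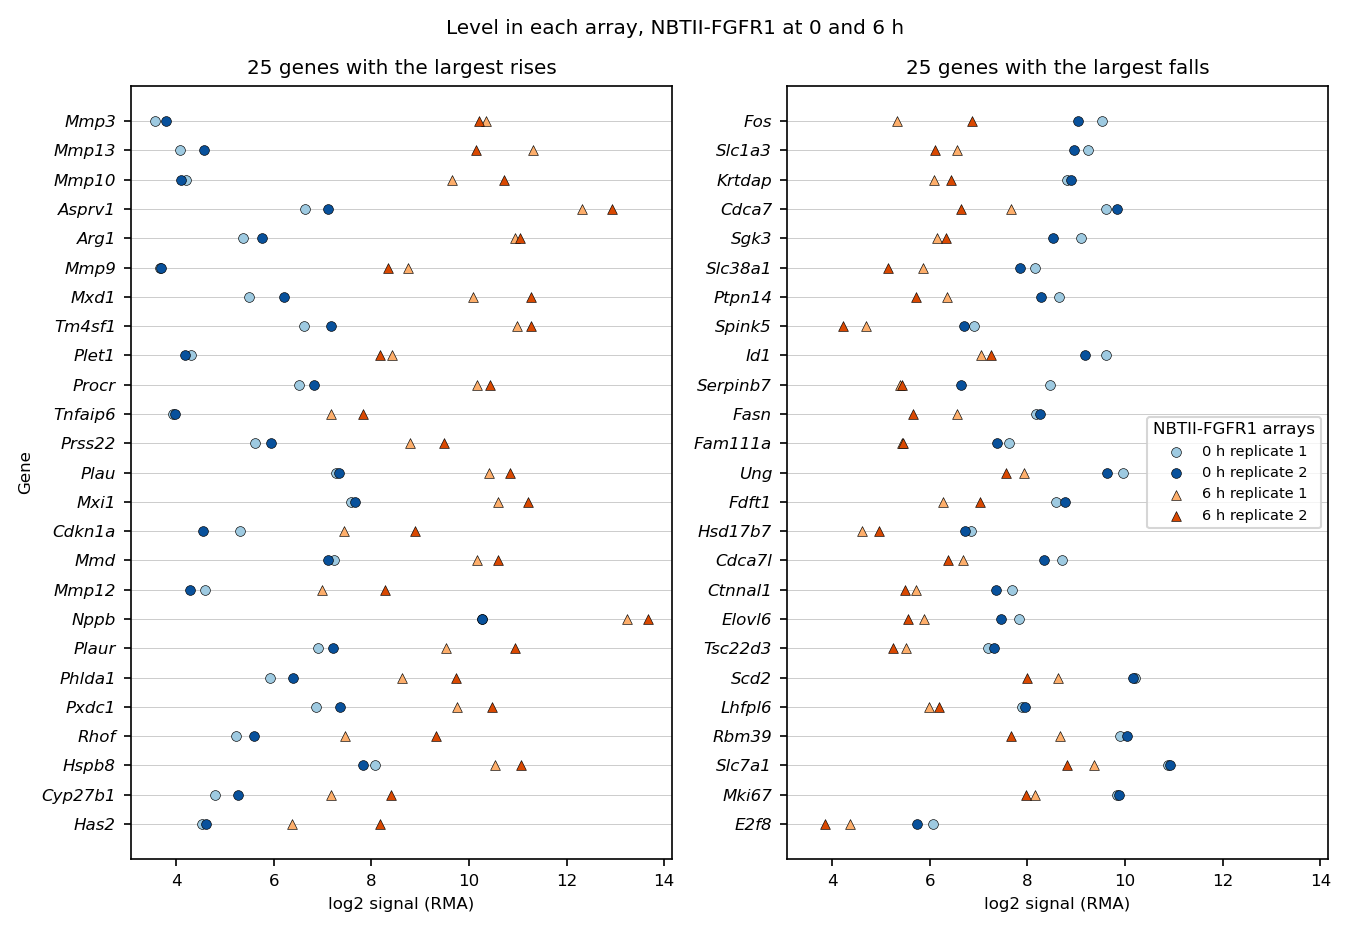
Log2 signal in each of the 4 NBTII-FGFR1 arrays (circles 0 h, triangles 6 h) for the 25 genes with the largest called rises and the 25 with the largest called falls whose groups did not overlap, in order of size. Mmp3 moved from 3.57 and 3.79 to 10.34 and 10.20, and Fos from 9.52 and 9.03 to 5.33 and 6.87.

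Upstream sequences are shown for the genes on which the largest rises and the most uniform falls turn. Each is the 150 bases before the RefSeq start site on the rat build GRCr8, 5′ to 3′ along the gene's strand. The first set holds the AP-1 site, spelled TGAGTCA or TGACTCA, whose 2 forms are the same site on opposite strands. It is in capitals. Shown are Mmp3, chr8:12925131-12925280, strand +, Mmp10, chr8:12974557-12974706, strand +, Mmp13, chr8:12782679-12782828, strand +, Mmp12, chr8:12866502-12866651, strand +, Mmp7, chr8:13132893-13133042, strand + and Plaur, chr1:89181213-89181362, strand +. The 5 Mmp genes lie within 1 cluster on chromosome 8.
Mmp3: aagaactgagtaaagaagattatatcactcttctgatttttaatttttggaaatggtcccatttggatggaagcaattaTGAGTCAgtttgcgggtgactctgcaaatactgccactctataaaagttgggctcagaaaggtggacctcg
Mmp10: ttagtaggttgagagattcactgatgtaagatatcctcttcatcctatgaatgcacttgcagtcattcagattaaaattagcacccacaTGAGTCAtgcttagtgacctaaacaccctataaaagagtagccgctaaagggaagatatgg
Mmp13: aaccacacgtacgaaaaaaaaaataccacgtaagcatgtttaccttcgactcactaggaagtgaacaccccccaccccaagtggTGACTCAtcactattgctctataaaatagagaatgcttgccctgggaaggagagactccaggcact
Mmp12: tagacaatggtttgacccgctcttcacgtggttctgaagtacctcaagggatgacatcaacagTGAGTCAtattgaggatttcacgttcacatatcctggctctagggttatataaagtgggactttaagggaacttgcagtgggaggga
Mmp7: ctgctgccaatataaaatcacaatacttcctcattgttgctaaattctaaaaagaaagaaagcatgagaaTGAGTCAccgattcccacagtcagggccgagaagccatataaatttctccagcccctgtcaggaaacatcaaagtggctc
Plaur: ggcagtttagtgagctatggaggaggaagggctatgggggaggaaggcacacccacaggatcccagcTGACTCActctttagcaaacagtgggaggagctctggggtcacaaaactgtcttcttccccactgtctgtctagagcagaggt
This set was printed for holding the site, so its presence in the 4 Mmp genes whose RNA rose is not a result. Mmp7, the matrilysin gene, holds the site too, and its RNA did not rise (3.95 and 4.14 at 0 h, 4.22 and 4.14 at 6 h, all near background). The promoter of Timp1, whose RNA rose, held no match. Of 13 metalloproteinase and inhibitor genes with a promoter in the table, 5 (38.5%) held the site between 250 bases before and 50 after the start, against 4.53% of all 27457 promoters and 3.82% of those of measured genes. The share was 6.01% among genes that rose, 9.06% among those that rose by over 1 and 2.06% among those that fell. Of 9 promoters of the EGF receptor list, in which 7 of 12 genes rose, 0 held the site. A match is a description of the letters, not a bound site.

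The second set is from 4 genes of DNA replication that fell and holds E2F-type sites, searched as TTCGCGC or TTGGCGC on both strands. Matches are in capitals, and matches on opposite strands overlap in the longer runs. Shown are Mcm2, chr4:122918095-122918244, strand -, Mcm6, chr13:42404353-42404502, strand -, Mcm7, chr12:22163179-22163328, strand - and Pola1, chrX:62342356-62342505, strand -.
Mcm2: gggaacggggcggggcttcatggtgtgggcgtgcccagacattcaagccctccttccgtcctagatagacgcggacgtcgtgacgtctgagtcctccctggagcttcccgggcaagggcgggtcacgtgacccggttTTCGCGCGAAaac
Mcm6: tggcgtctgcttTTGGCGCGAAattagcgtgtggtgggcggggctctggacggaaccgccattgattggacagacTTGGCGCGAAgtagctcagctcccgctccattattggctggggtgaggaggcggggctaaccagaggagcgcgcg
Mcm7: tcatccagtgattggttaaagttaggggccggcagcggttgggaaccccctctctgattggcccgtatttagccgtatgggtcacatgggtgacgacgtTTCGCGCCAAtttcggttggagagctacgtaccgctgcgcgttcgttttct
Pola1: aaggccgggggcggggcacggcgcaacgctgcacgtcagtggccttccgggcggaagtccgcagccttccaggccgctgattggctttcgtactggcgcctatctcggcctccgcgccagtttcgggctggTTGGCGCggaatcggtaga
Of 32 replication promoters 14 (43.8%) held such a site, against 3.89% of all promoters, 6.91% of those of measured genes, 10.5% of those of genes that fell and 6.67% of those of genes that rose. Ribosome biogenesis promoters held the E-box CACGTG in 11 of 40 (27.5%, all promoters 6.65%, measured genes 8.92%), and mitosis promoters held CCAAT in 21 of 26 (80.8%, all promoters 37.7%, measured genes 37.6%).

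Secreted proteases that cut the extracellular matrix led the rises. Of 17 measured metalloproteinases and their inhibitors 8 rose and 0 fell, with and without the doubted library. Stromelysin Mmp3 read 3.57 and 3.79 at 0 h and 10.34 and 10.20 at 6 h, a rise of 6.59 ± 0.44 (96.2-fold, adjusted p = 1.4e-06). Collagenase Mmp13 went from 4.08 and 4.57 to 11.31 and 10.14, or 6.40 ± 0.52. The second stromelysin, Mmp10, went from 4.20 and 4.09 to 9.65 and 10.72, or 6.04 ± 0.65. All 3 were near the bottom of the signal range at 0 h and among the brighter probe sets at 6 h. Gelatinase Mmp9 rose from 3.66 and 3.69 to 8.75 and 8.35 (4.88 ± 0.29), and its other probe set also rose. Macrophage elastase Mmp12 rose from 4.59 and 4.29 to 6.99 and 8.28 (3.20 ± 0.31). The 0 h means of all 5 lay below 4.54, the highest lower quartile of any array and the limit meant by the lower quartile below, although Mmp13 and Mmp12 each read just above it in 1 array. The table has no detection calls, so such levels were not shown to exceed background and these rises are lower bounds. Membrane-bound Mmp14 (1.57 ± 0.21) and Mmp24 (1.27 ± 0.19) and the inhibitor Timp1 (1.61 ± 0.21) rose from levels between 6.73 and 10.08. Timp2, Timp3, Mmp2, Mmp7, Mmp8, Mmp11, Mmp16, Mmp23 and Reck lay between -0.18 and 0.29 and did not pass. The median of the list was 0.29.

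The plasminogen activator system turns plasminogen into plasmin, which activates metalloproteinases. Of its 10 measured members 6 rose and 0 fell, 4 without the doubted library. Urokinase Plau read 8.14 and 8.17 at 0 h and 11.21 and 11.45 at 6 h (3.18 ± 0.25, 9.05-fold). Its receptor Plaur read 6.91 and 7.22, then 9.52 and 10.94 (3.17 ± 0.35). Both 6 h arrays of each gene lay more than 2 above both 0 h arrays. Tissue activator Plat was a weaker call (1.13 ± 0.38, adjusted p = 0.046 in limma), lost in 11 of 18 fits that left out 1 array. Among inhibitors Serpine2 rose by 1.53 ± 0.21 and Serpinb9, an inhibitor of granzyme B, by 0.94 ± 0.18. Other surface and secreted proteases stood among the 25 largest rises as well. Asprv1, a retroviral-like aspartic protease of stratified epithelium, went from 6.64 and 7.11 to 12.31 and 12.94 (5.75 ± 0.40, 53.8-fold), and the serine protease gene Prss22 rose by 3.36 ± 0.57. Of 9 ADAM and ADAMTS genes only Adam10 was called (0.67 ± 0.18).

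Ligands of the EGF receptor rose together, while the receptor itself was lower. In this list 7 of 12 rose and 1 fell, with a median of 1.13, or 0.70 on averaging all probe sets of each gene. Hbegf read 7.47 and 7.38, then 9.26 and 10.04 (2.23 ± 0.30, 4.69-fold). Ereg rose by 2.45 ± 0.39, Areg by 1.80 ± 0.29, Tgfa by 1.74 ± 0.12 and Nrg1, a ligand of ERBB3 and ERBB4, by 1.61 ± 0.24. Tgfa was the tightest of them, with 6.77 and 6.87 at 0 h and 8.56 in both arrays of 6 h. Errfi1, a feedback inhibitor of the receptor kinase, rose by 2.00 ± 0.31. Egfr fell from 7.98 and 7.97 to 7.15 and 6.90 (-0.96 ± 0.26, adjusted p = 0.017). That fall and the rise of Btc (0.66) were not called without the doubted library (adjusted p = 0.085 and 0.061), which leaves 6 rises and 0 falls. Among other receptors, Fgfr2 read 8.40 and 8.52 at 0 h and 7.65 and 7.23 at 6 h (-1.02 ± 0.29, adjusted p = 0.021, and 0.078 without the doubted library). Flt1, the VEGF receptor 1 gene, rose by 2.40 ± 0.34, and the kinase receptor Axl fell by 1.08 on the log2 scale.

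ERK switches on a set of target genes, some of which damp its signalling in turn, and their RNA is used as a readout of the pathway. Of 11 measured, 6 rose and 1 fell, and 5 and 0 without the doubted library. Spry2 read 6.07 and 6.30 at 0 h and 7.88 and 7.93 at 6 h (1.72 ± 0.13). The nuclear phosphatase gene Dusp5 rose by 1.91 ± 0.34 and the ERK phosphatase gene Dusp6 by 0.97 ± 0.14 from an already high 11.39 and 11.82. Ier3 rose by 1.24 ± 0.22 and Ets2 by 0.83 ± 0.17. Spry1 went the other way (-0.86 ± 0.26), though its adjusted p was 0.29 without the doubted library.

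AP-1 subunits moved in opposite directions. Fos read 9.52 and 9.03 at 0 h and 5.33 and 6.87 at 6 h, the largest fall in the comparison (-3.17 ± 0.40, 9.02-fold lower, adjusted p = 8.5e-05). Its second probe set was not called. Jun fell by 1.03 on the log2 scale, in all 3 of its probe sets, and Jund by 0.79. Fosl1, which encodes the FRA1 subunit, read 9.01 and 9.28 and then 11.04 and 11.22 (1.98 ± 0.19). Of 14 subunits 1 rose and 5 fell, and without the doubted library 2 and 3. Egr1, another immediate-early gene, did not pass (-0.92 ± 0.45), with 9.79 and 9.63 at 0 h and 8.06 and 9.53 at 6 h. Neither did Myc (0.34 ± 0.14) nor the cyclin gene Ccnd1 (0.21 ± 0.18).

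Actin and adhesion genes were the list with the most rises, with 20 of 40 higher and 4 lower (13 and 0 without the doubted library). The members that rose most sit at focal adhesions and stress fibres. Zyx, a focal adhesion scaffold, read 7.65 and 7.90 at 0 h and 9.82 and 10.36 at 6 h (2.31 ± 0.32). Tes, its binding partner, rose by 2.07 ± 0.18, the scaffold gene Pxn by 1.28 ± 0.19 and Vasp, which promotes actin filament growth, by 0.94 ± 0.14. Vcl, the vinculin gene, Enah, Rdx and Myh10 fell by 0.52 to 0.87 on the log2 scale. Rhof, which acts in filopodia, rose from 5.22 and 5.60 to 7.46 and 9.32 (2.98 ± 0.52), with a wide gap between its 6 h arrays. Tm4sf1, a tetraspanin-like surface protein, went from 6.61 and 7.18 to 10.99 and 11.27 (4.24 ± 0.31, 18.9-fold).

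Matrix and matrix receptors were mixed, with 3 of 16 integrin, laminin and related genes higher and 2 lower (3 and 3). Lama3, the alpha chain of laminin-332 in epithelial basement membrane, rose by 2.38 ± 0.23, to 11.58 and 11.13. Lama5 moved the other way, from 8.39 and 8.48 to 6.95 and 6.87 (-1.53 ± 0.18). The hyaluronan receptor gene Cd44 rose by 1.08 ± 0.16. Has2, which makes hyaluronan, rose from 4.53 and 4.61 to 6.38 and 8.18 (2.71 ± 0.37), and Tnfaip6, which modifies hyaluronan, from 3.93 and 3.98 to 7.18 and 7.83 (3.55 ± 0.45, a lower bound). These 3 were set side by side after their values were seen.

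Epithelial identity genes were not lower as a group. Of 22 junction genes 6 rose and 2 fell, and 4 and 1 without the doubted library. E-cadherin Cdh1 read 9.11 and 8.50 at 0 h and 10.10 and 9.80 at 6 h (1.15 ± 0.25, adjusted p = 0.0041). The tight junction gene Cldn4 rose by 1.61 ± 0.24. Desmoplakin Dsp read 11.46 and 11.49, then 10.92 and 10.74, a fall of 0.64 on the log2 scale. Among keratins the simple-epithelium pair Krt8 (1.25 ± 0.28) and Krt18 (2.33 ± 0.59) rose, and Krt10, Krt13 and Krt1 of differentiated stratified layers fell by 1.79, 1.22 and 0.90 on the log2 scale. Krt18 began below the lower quartile and read 5.89 and 7.82 at 6 h, so its 2 later arrays stood far apart. Basal keratins Krt5 and Krt14 stood at 12.49 to 13.92 in all 4 arrays and were not called. Squamous differentiation genes moved both ways, more often up: of 18 measured, 27.8% rose and 11.1% fell. Their median was 0.30 (0.20 without the doubted library), with values from -2.59 to 5.75. The crosslinking enzyme gene Tgm1 rose by 2.58 ± 0.31, whereas the kallikrein Klk6 fell by 1.71 on the log2 scale and Krtdap by 2.59. The Krtdap call was lost whichever of the 4 arrays was left out.

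Of 25 mesenchymal markers and transition factors 2 rose and 2 fell (8% each way), no more than over all genes, and without the doubted library 2 rose and 0 fell. The cytokine Tgfb1 rose from 6.63 and 6.92 to 8.09 and 8.42 (1.48 ± 0.21) and the repressor Zeb1 by 0.70 ± 0.18. Snai1 (0.13), Twist1 (0.10), N-cadherin Cdh2 (0.12) and fibronectin Fn1 (0.43 ± 0.27) did not pass, and Twist1 and Cdh2 stayed under the lower quartile.

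**Figure D2:**
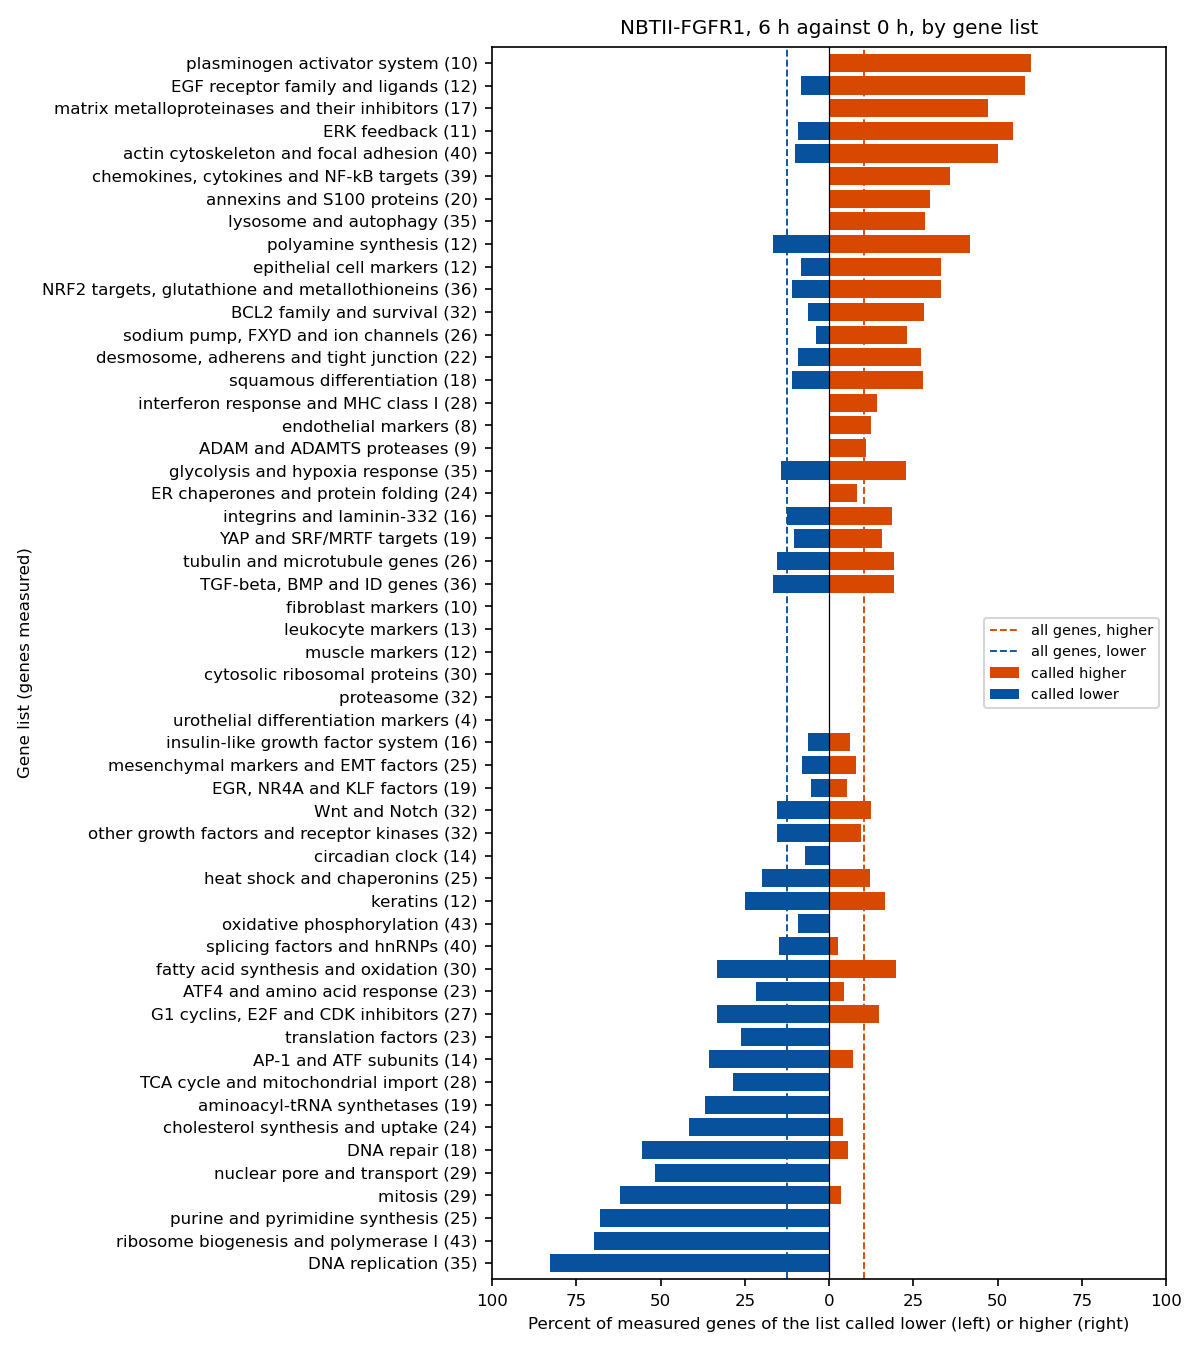
Percent of the measured genes of each of 54 lists called higher (right) or lower (left) at 6 h against 0 h in NBTII-FGFR1, with the shares over all genes as dashed lines (10.4% higher, 12.5% lower). Plasminogen, EGF receptor and metalloproteinase lists lie at the top, and DNA replication, with 82.9% lower, at the bottom.

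Inflammatory and stress genes rose in part. Of 39 chemokines, cytokines and NF-kB targets 14 rose and 0 fell (9 and 0). Among them were Ptgs2, the inducible cyclooxygenase gene, at 8.50 and 8.15 and then 9.99 and 10.07 (1.71 ± 0.25) and Ptges, which makes prostaglandin E2, at 2.19 ± 0.29. The cytokine genes Il24 (2.44 ± 0.49) and Csf3 (1.92 ± 0.40) rose from levels below 5, and Nfkbia, the NF-kB inhibitor, rose by 1.40 ± 0.36. Il6, Tnf, Il1b and Ccl2 were not called. Of 36 genes of the oxidative stress response 12 rose and 4 fell (6 and 2), with Hmox1, the heme oxygenase gene, at 7.94 in both arrays of 0 h (2.14 ± 0.27) and Txnrd1 at 1.78 ± 0.17. Of 35 lysosome and autophagy genes 10 rose and 0 fell (7 and 0), led by the protease gene Ctsl (1.78 ± 0.23). Of 32 genes of cell death and survival 9 rose and 2 fell (6 and 2), and 4 rose without 6 h replicate 2. Those that rose include Cflar (1.51 ± 0.19), which blocks caspase-8, and Bak1 (1.20 ± 0.21), Casp8 (1.14 ± 0.21) and Apaf1 (1.08 ± 0.18), which promote cell death. The glucose transporter gene Slc2a1 (1.02 ± 0.16), hexokinase Hk2 (1.27 ± 0.19) and the hypoxia-responsive Ndrg1 (9.56 and 9.76, then 12.39 and 12.19, or 2.62 ± 0.27) rose within a list of 35 glycolysis and hypoxia genes of which 8 rose and 5 fell (5 and 1, and 8 and 1 on centring each array).

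Genes of arginine and polyamine enzymes included 1 of the largest rises. Arg1, the arginase that makes ornithine, read 5.36 and 5.75 at 0 h and 10.94 and 11.05 at 6 h (5.43 ± 0.30, 43.3-fold, adjusted p = 3.7e-07). Mitochondrial Arg2 rose by 1.60 ± 0.24, a lower bound, and Odc1, which turns ornithine into putrescine, went from 11.51 and 11.62 to 13.38 in both arrays (1.81 ± 0.15). The next enzymes fell: spermidine synthase Srm by 0.98 and spermine synthase Sms by 0.97 on the log2 scale, while Sat1, which breaks polyamines down, rose by 1.28 ± 0.21. So 5 of 12 polyamine genes rose and 2 fell, with the same counts without the doubted library. The arginine importer gene Slc7a1 fell from 10.88 and 10.91 to 9.37 and 8.81 (-1.80 ± 0.19).

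Among the other large rises were signalling and stress genes of no single list. Nppb, the brain natriuretic peptide gene, rose from an already high 10.26 and 10.27 to 13.23 and 13.66 (3.18 ± 0.35). Procr, the endothelial protein C receptor gene, went from 6.51 and 6.82 to 10.16 and 10.44 (3.63 ± 0.27, 12.4-fold), and the tissue factor gene F3 rose by 2.44 ± 0.29. The surface protein gene Plet1 rose by 4.05 ± 0.55 from below the lower quartile. The small heat shock gene Hspb8 rose by 2.85 ± 0.22 in one probe set and 2.44 ± 0.19 in the other. Cyp27b1, which activates vitamin D, rose from 4.79 and 5.27 to 7.17 and 8.41 (2.76 ± 0.40), and Axin2, a target and brake of Wnt signalling, from 5.41 and 5.46 to 7.70 and 8.52 (2.68 ± 0.49). Notch1 fell by 1.15 on the log2 scale in the same list of 32 Wnt and Notch genes, of which 4 rose and 5 fell (2 and 3).

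Other large single falls included genes of transport and signalling. The glutamine transporter gene Slc38a1 read 8.15 and 7.85, then 5.85 and 5.14 (-2.50 ± 0.27), and fell in its 2 other probe sets too. The kinase gene Sgk3 read 9.09 and 8.52, then 6.15 and 6.34 (-2.56 ± 0.21), and the phosphatase gene Ptpn14, a partner of YAP, fell by 2.42 on the log2 scale. Slc1a3, a glutamate transporter, fell by 2.76 in one probe set, while its 2 other probe sets moved in opposite directions, so the gene as a whole has no settled direction. Serpinb7 read 8.46 and 6.64 at 0 h, its arrays being far apart, and its fall (-2.14 ± 0.57) was not called without the doubted library (adjusted p = 0.21).

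DNA replication genes fell nearly as a block. Of 35 measured 29 fell (82.9%) and 0 rose, 24 without the doubted library, with a median of -0.84. Pola1, the catalytic subunit of primase-polymerase alpha, read 8.46 and 8.26 at 0 h and 6.67 and 6.84 at 6 h (-1.61 ± 0.18, 3.05-fold lower). Mcm2 of the replicative helicase read 9.61 and 9.32, then 8.09 and 8.20 (-1.32 ± 0.15). All 6 helicase genes Mcm2 to Mcm7 fell, by 0.81 to 1.32 on the log2 scale, as did the polymerase genes Pold1, Pold2, Pold3 and Pole, by 0.94 to 1.27. The nucleotide enzymes Tyms, Tk1, Rrm1 and Dut fell by 0.58 to 1.03. Rfc3, Rfc4, Orc6, Gins4, Rpa3 and Slbp did not pass, with values from -0.55 to 0.08. The falls were small but tight: apart from Pola1 none exceeded 1.5 on the log2 scale, against a median difference of 0.122 between the arrays of 0 h and 0.169 between those of 6 h.

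**Figure D3:**
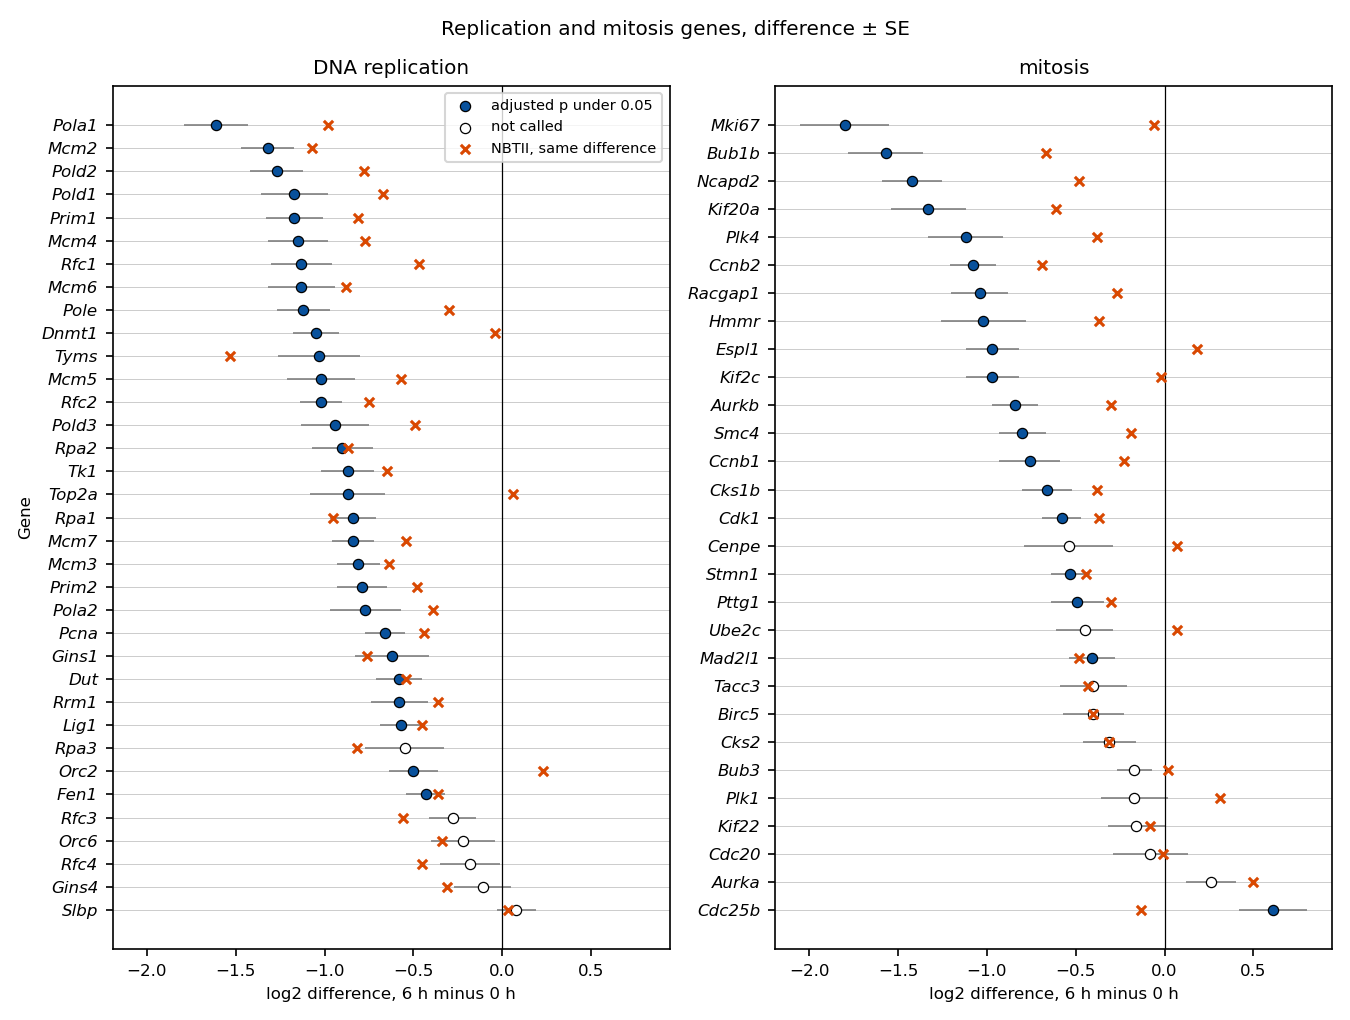
Log2 difference, 6 h minus 0 h, of the 35 replication and 29 mitosis genes in NBTII-FGFR1 (circles, filled where adjusted p was under 0.05, bars ± SE), with the same difference in NBTII as crosses. Replication genes run from Pola1 at -1.61 to Slbp at 0.08, and in mitosis only Cdc25b is a filled circle right of 0.

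Mitosis genes followed with 18 of 29 lower and 1 higher (16 and 0). Mki67, the proliferation marker, read 9.84 and 9.87 and then 8.16 and 7.97 (-1.80 ± 0.25). The spindle checkpoint kinase gene Bub1b fell by 1.57 and cyclin Ccnb2 by 1.08 on the log2 scale. Plk1, Cdc20 and Aurka were not called, and Cdc25b, a phosphatase that activates CDK1, rose by 0.61 ± 0.19. DNA repair had 10 of 18 lower and 1 higher (9 and 1). Ung, which removes uracil from DNA, fell from 9.96 and 9.63 to 7.92 and 7.56 (-2.06 ± 0.18, 4.16-fold lower), Brca2 fell by 1.68 on the log2 scale, and the excision repair gene Ercc1 rose by 1.23 ± 0.22. Of 27 G1 cyclin, E2F and CDK inhibitor genes 4 rose and 9 fell (3 and 3). The CDK inhibitor Cdkn1a read 7.35 and 7.22 at 0 h and 8.87 and 9.59 at 6 h (1.94 ± 0.31), with 3.22 ± 0.51 in its dimmer probe set. Mxd1 and Mxi1, which compete with MYC for its partner MAX, rose from 5.49 and 6.21 to 10.09 and 11.28 (4.83 ± 0.51, 28.5-fold) and from 7.59 and 7.66 to 10.59 and 11.20 (3.27 ± 0.28, 9.61-fold). Cdca7, an activator of proliferation that MYC and E2F control, fell from 9.60 and 9.84 to 7.66 and 6.63 (-2.58 ± 0.37). E2f8, a late repressor of the E2F family, fell by 1.79 and Id1, an inhibitor of differentiation factors, by 2.24 on the log2 scale.

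Genes for building ribosomes and nucleotides fell broadly and by less. Of 43 ribosome biogenesis genes 30 fell and 0 rose (21 and 0), with a median of -0.58. Polr1b of RNA polymerase I read 8.29 and 8.32 at 0 h and 7.44 and 7.17 at 6 h. The helicase gene Ddx21 fell by 1.15 and nucleolin Ncl by 0.64 on the log2 scale. Of 25 purine and pyrimidine genes 17 fell and 0 rose (15 and 0). Cad, which starts pyrimidine synthesis, read 9.03 and 9.14, then 7.57 and 7.38 (-1.61 ± 0.16, 3.06-fold lower), and Ppat, the first step of purine synthesis, fell by 1.60 on the log2 scale. Nuclear pore and transport genes had 15 of 29 lower and 0 higher (6 lower without the doubted library), and aminoacyl-tRNA synthetases had 7 of 19 lower (4). Cytosolic ribosomal proteins (0 of 30 called) and proteasome genes (0 of 32) were not called in either direction by limma, nor without the doubted library or 6 h replicate 2, though centring each array gave 3 proteasome rises, and their medians were -0.03 and 0.06. Of 43 oxidative phosphorylation genes 4 were lower, and 0 without the doubted library.

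Lipid genes fell in part. Of 24 cholesterol genes 10 fell and 1 rose (7 and 1). Dhcr7, the last step of cholesterol synthesis, read 8.49 in both arrays of 0 h and 6.64 and 6.78 at 6 h (-1.78 ± 0.15, 3.44-fold lower). Squalene synthase Fdft1 fell by 2.03, the demethylase gene Cyp51 by 1.61 and Srebf1, a regulator of lipid synthesis, by 1.63 on the log2 scale. In fatty acid metabolism 10 of 30 fell and 6 rose (8 and 3). The falls included the synthesis genes Elovl6 (-1.92 ± 0.20), fatty acid synthase Fasn (10.18 and 10.27, then 8.73 and 8.02, or -1.85 ± 0.28) and Acaca (-1.59 ± 0.22). Cpt1a and Acadvl of fatty acid oxidation and the nuclear receptor gene Ppard (1.63) rose.

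Markers of other cell types stayed low and were not called, with 1 exception. Of 10 fibroblast, 13 leukocyte and 12 muscle markers 0 were called, 6, 7 and 8 of them started below the lower quartile, and their mean levels over the 4 arrays ran from 4.11 to 4.20, 4.69 to 4.84 and 4.47 to 4.72. Of 8 endothelial markers only Flt1, described above, rose. The 12 epithelial markers averaged 8.72 to 9.21. Of 4 measured urothelial differentiation markers 0 were called, 1 started below the lower quartile, and their mean was 4.77 to 4.85. These averages come from different probe sets, so they do not rank the marker groups by RNA amount. Only 4 of 9 urothelial markers listed were measured. The urothelial signals were low, and whether they exceeded background was not tested. In bulk RNA, fewer cells of a type and less RNA per cell cannot be told apart.

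The neighbouring times place the 6 h changes. Against 2 h, 2695 probe sets (17%) differed, 1174 higher (7.4%) and 1521 lower (9.59%). Centring each array on its median turned the split to 1679 and 1371, or from 43.6% to 55% higher. Against 24 h, 2346 (14.8%) differed, 922 higher (5.81%) and 1424 lower (8.98%). Without 6 h replicate 2 these counts were 1420 and 1239, without 2 h replicate 1 the first was 1408, and without 24 h replicates 1 or 2 the second was 1016 or 1394. All of these comparisons share the 6 h arrays. The 2 arrays of NBTII-FGFR1 at 2 h correlated at r = 0.988, the lowest of the 9 groups of 2, with a median difference of 0.183. Replicate 1 of that time was therefore also left out, alone and together with the doubted library, and results against 2 h depend on it. At 6 h, 258 probe sets (1.63%) were higher than at 0, 2 and 24 h and 544 (3.43%) lower than at all 3. Mmp12, Mmp9 and Has2 stood highest by this measure: Mmp9 was 2.44 above 2 h and 3.41 above 24 h on its other probe set, whose 6 h arrays read 7.93 and 7.61, and Has2 2.33 and 2.67. Arg1 was 1.73 above 2 h and 4.43 above 24 h. Mmp3, Mmp10 and Mmp13 were not a peak of this kind, since they lay within -0.28 to -0.07 of their 24 h level. Replication genes were lower at 6 h than at 2 h in 23 of 35 and than at 24 h in 28 of 35, with medians of -0.69 and -0.83. Cholesterol genes were lower than at 24 h in 16 of 24. Fos was 3.20 below its 2 h level and not different from 24 h (0.78, not called), and EGR, NR4A and KLF factors were lower than at 2 h in 13 of 19. Hbegf, Plaur and Fosl1 did not differ from 2 h at the threshold (-0.37, -0.70 and -0.31).

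**Figure D4:**
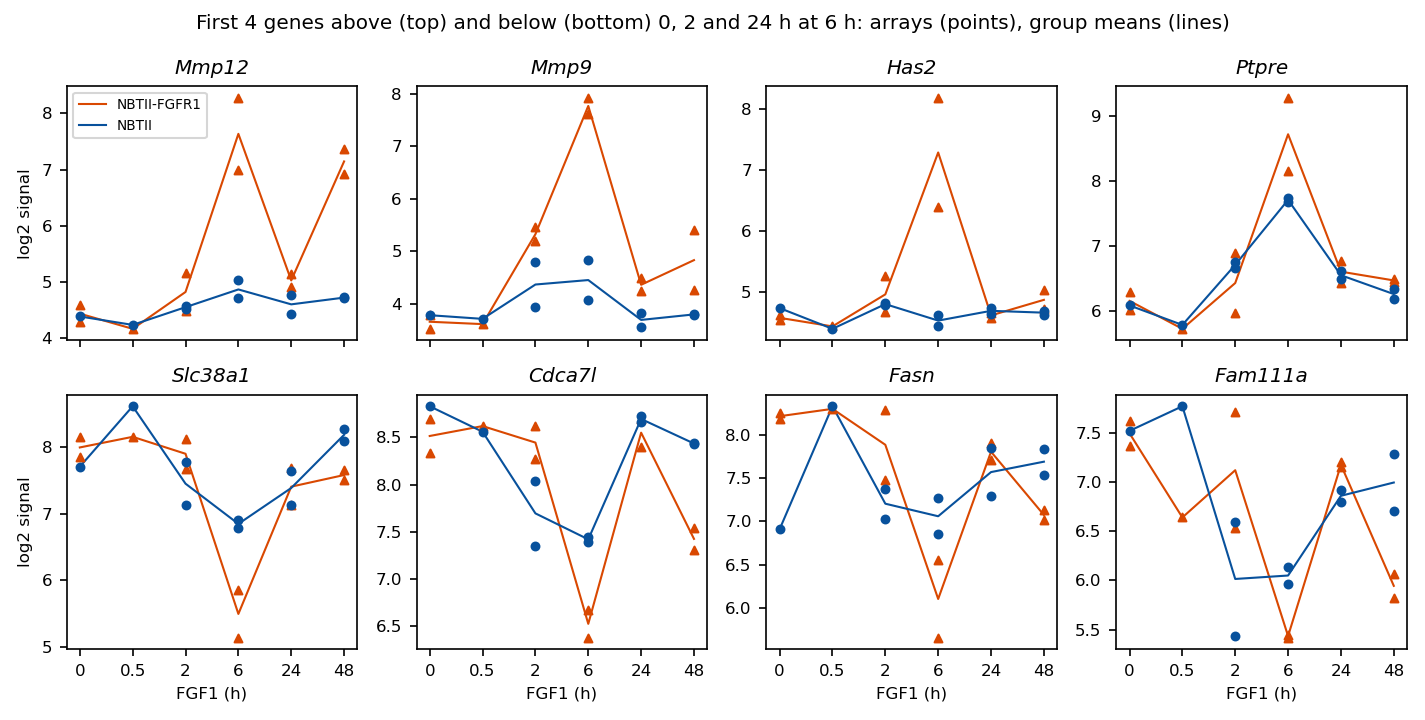
Log2 signal over hours of FGF1 in NBTII-FGFR1 (triangles) and NBTII (circles), with each array as a point and group means joined, for the first 4 genes above (top row) and below (bottom row) their 0, 2 and 24 h levels at 6 h. Mmp9 is shown by its other probe set than in the plot of the largest rises, and the time axis is not to scale. Has2 in NBTII-FGFR1 reads 6.38 and 8.18 at 6 h.

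The parental line gives the same comparison without the transfected receptor, but its 0 h level is 1 array with no replicate, and every line difference rests on it. In NBTII, with 2 arrays of 6 h and 1 of 0 h, 936 probe sets (5.9%) differed, 587 higher (3.7%) and 349 lower (2.2%). The unequal number of arrays bears on this count, and a call in 1 line only is no test of a difference. These tests take the spread from all 21 arrays. With only the arrays compared limma called 0 probe sets in NBTII (2969 at an unadjusted p under 0.05) and 6 line differences. Tested directly, the response differed between lines in 64 probe sets (0.403%), more positive in NBTII-FGFR1 in 15 (0.0945%) and more negative in 49 (0.309%). Without the doubted library 27 differed, of which 24 were among the 64. Leaving out single arrays moved this count widely. It was lowest without NBTII 6 h replicate 1 and highest without NBTII-FGFR1 6 h replicate 1. Neither the number nor the genes called are therefore settled. Without NBTII 6 h replicate 1 the NBTII count itself was 404.

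Metalloproteinases made up 5 of the 15 more positive responses, counting both probe sets of Mmp9. Mmp3 rose from 3.90 to 5.46 and 6.21 in NBTII, so its NBTII-FGFR1 rise was larger by 4.66 ± 0.69 (adjusted p = 0.013, and 0.041 without the doubted library). Mmp9 was larger by 3.71 ± 0.46 (0.0043 and 0.025), Mmp10 by 5.23 ± 1.03 (0.047 and 0.12) and Mmp12 by 2.71 ± 0.49 (0.029 and 0.066). Mmp13 was not among them: it rose by 5.14 in NBTII and 6.40 in NBTII-FGFR1, a difference of 1.26 ± 0.82 (adjusted p = 0.58). Has2 did not rise in NBTII (-0.20) and differed by 2.91 ± 0.58, and the chemokine Cxcl12 differed by 2.42 ± 0.48, each called with the doubted library only (adjusted p = 0.14 and 0.086 without it). Marcksl1, which binds actin and membrane, rose by 1.96 ± 0.17 in NBTII-FGFR1, and its difference in NBTII was 0.34 (not called). For urokinase, its receptor, Odc1, Zyx and Dhcr7 the line differences were 0.17, -0.12, -0.18, 0.06 and -0.08 with SEs of 0.24 to 0.55, and none was called.

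Among the more negative responses, Fos differed by -3.57 ± 0.63, since it read 4.90 in NBTII at 0 h and 5.19 and 5.40 at 6 h, far below the 0 h level of NBTII-FGFR1. Fosl1 rose in both lines, by 3.85 in NBTII and 1.98 in NBTII-FGFR1 (difference -1.87 ± 0.30, adjusted p = 0.016, and 0.041 without the doubted library). Cad (-1.71 ± 0.25) and Slc7a1 (-2.03 ± 0.30) fell in NBTII-FGFR1 and moved by 0.10 and 0.23 in NBTII. Cell anchorage genes were among the 49 too. Vcl rose by 1.17 in NBTII and fell by 0.52 on the log2 scale in NBTII-FGFR1. Of 16 integrin, laminin and related genes 4 were more negative: Plec, the plectin linker gene (-1.88 ± 0.36), laminin chains Lama5 (-1.46 ± 0.28) and Lamc1 (-1.43 ± 0.24), and integrin alpha 6 Itga6 (-0.99 ± 0.19). Plec, Lamc1 and Itga6 were higher at 6 h in NBTII by 1.29, 0.92 and 1.15, while Lama5 was not (-0.07). Without the doubted library the calls of Plec and Lamc1 held and those of Lama5 and Itga6 did not. Replication genes had a median of -0.54 in NBTII with 12 of 35 lower, and 0 of 35 passed the test of a line difference. For ribosome biogenesis the medians were -0.16 in NBTII (1 of 43 lower) and -0.58 in NBTII-FGFR1, and again 0 of 43 line differences were called. A difference between the lines was thus not shown for either group.

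**Figure D5:**
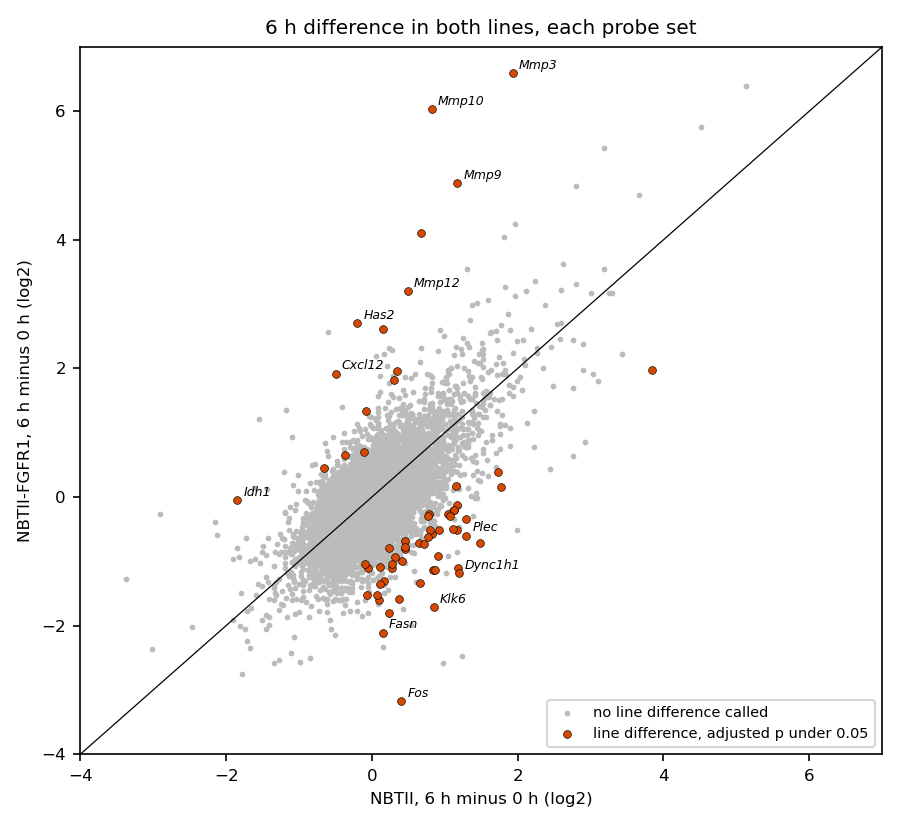
Log2 difference, 6 h minus 0 h, of each of 15866 probe sets in NBTII (horizontal) and NBTII-FGFR1 (vertical), with equality as a line. The 64 probe sets whose response differed between lines are orange, the leading ones named where labels did not overlap, and Mmp3 lies at 1.93 in NBTII and 6.59 in NBTII-FGFR1.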

How the data were processed

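The data are 21 Affymetrix rat expression arrays of 12 groups (2 lines, 6 times). The deposited values are log2 signals that the authors made by robust multi-array averaging (RMA), per the submitters' processing notes, which give no version; detection calls were not used here. limma 3.58.1 (R 4.3.3) was run on the 15866 non-control probe sets of 15923, with 12 group means over 21 arrays, moderated variance, Benjamini-Hochberg adjustment, threshold 0.05. Tables and figures used Python 3.11.15 and pandas 2.3.3. Symbols came from the platform annotation (12783 probe sets with 1 symbol, 312 with several, 2771 with none), and a gene is its probe set with the highest mean unless stated. Of 1594 list entries 1296 were measured, in 55 lists, and the result of 1 list is not reported here. Named genes were a fixed set, the 25 largest called rises and falls, the leading members of each list, the 10 largest line differences each way and the 8 most extreme peaks and troughs at 6 h; others were chosen after their values were seen. Members and lists were chosen with earlier results of these data known. Fewer arrays per group limit the precision. Alternatives left out arrays, filtered dim probe sets, added a replicate block, restricted the arrays, renormalized, centred, or changed the variance model.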

Additional observations from a re-analysis of the deposited data

Results flagged for a closer look

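The 6 h response differed between the lines, by a test of the difference itself, in 64 probe sets. The 10 named genes with the most positive difference (NBTII-FGFR1 response minus NBTII response, log2) were Mmp10 at 5.23, Mmp3 at 4.66, Mmp9 at 3.71, Has2 at 2.91, Mmp12 at 2.71, Ptges at 2.47, Cxcl12 at 2.42, Idh1 at 1.80, Marcksl1 at 1.61 and Dhrs9 at 1.52. Idh1 is of another kind than the rest: it was level in NBTII-FGFR1 (9.33 in both arrays of 0 h, 9.11 and 9.44 at 6 h) and lower at 6 h in NBTII, by 1.85 on the log2 scale. Among these 10, Mmp3, Mmp9 and Marcksl1 stayed past the threshold in limma without the doubted library. The 10 most negative were Fos at -3.57, Klk6 at -2.57, Dync1h1 at -2.38, Fat1 at -2.28, Fasn at -2.26, Slc7a1 at -2.03, Zfhx3 at -2.00, Prrc2c at -1.99, Cyp3a9 at -1.98 and Plec at -1.88. Of these Dync1h1, Fat1, Slc7a1, Zfhx3, Cyp3a9 and Plec stayed past it. Other probe sets of 3 of the 20 genes missed the threshold for the line difference: Cxcl12 at 1.27 and 0.98 (adjusted p in limma = 0.24 and 0.32), Fasn at -1.71 (0.12) and Ptges at 2.13 (0.062). The Fos difference rests on its 0 h level, 9.52 and 9.03 in NBTII-FGFR1 and 4.90 on the only NBTII array of that time. The difference between lines thus depends on 1 array of NBTII at 0 h, which has no replicate. Genes that stayed past the threshold without the doubted library did not all stay past it without NBTII 6 h replicate 1.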

How the results depend on the processing

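No call of the 282 named genes or probe sets changed direction under the alternatives run, and the other calls were not checked for this. For 6 h against 0 h the count of 3382 stayed within 1.5 times under the settings other than leaving out an array, and leaving out 1 array moved it from 1898 to 3825. Other counts moved more. With only the arrays compared, limma called 6 line differences, 265 probe sets against 2 h, 1312 against 24 h and 0 in NBTII, where 2969 had an unadjusted p under 0.05. With array weights it called 121 line differences and 1053 probe sets against 2 h. Centring each array on its median left 42 line differences. Without both 0 h replicate 1 and 2 h replicate 1 of NBTII-FGFR1, 1280 probe sets differed from 2 h. Leaving out 1 array gave 6 to 198 line differences, 1408 to 3613 calls against 2 h, 1016 to 2824 against 24 h and 404 to 1235 in NBTII. The cause of these shifts was not tested, beyond the smaller number of arrays.

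The replicate numbers were not taken to pair the samples, which would need every pair of groups to correlate over 0.1: deviations of the same number from the 0 h and 6 h means correlated at -0.083, and 15 of 36 pairs exceeded 0.1. With the replicate number as a block 1538 probe sets were higher and 1959 lower, 3497 in all, and 203 line differences were called (42 more positive, 161 more negative).

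Of 282 named genes or probe sets 208 kept their call in all fits. Medians of the 55 lists moved beyond the replicate spread in 23 without the doubted library, 19 on centring and 11 on averaging a gene's probe sets. The groups of 1 array, at 0.5 h and NBTII at 0 h, could not be left out. Signals near background limit the rises of genes that started there.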

Other observations

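Several of the genes whose 6 h response was more negative in NBTII-FGFR1 than in NBTII encode very large proteins, a reading made after their values were seen and with no test of length. They include the motor protein gene Dync1h1, the protocadherin Fat1, the linkers Plec, Macf1, Flna and Sptan1, the spliceosome genes Prpf8 (-1.39) and Snrnp200 (-1.04), and Polr2a (-1.44), the largest subunit of RNA polymerase II. Dync1h1 read 8.23 and 8.42 at 0 h and 7.40 and 6.87 at 6 h in NBTII-FGFR1 and was higher at 6 h in NBTII by 1.19. Fat1 read 10.73 and 10.81, then 10.08 and 9.27, and was higher in NBTII by 1.18. The 3' minus 5' signal of the actin control was 0.47 and 0.48 at 0 h and 0.32 and 0.41 at 6 h in NBTII-FGFR1, and 0.34 at 0 h and 0.46 and 0.20 at 6 h in NBTII. For the Gapdh control it was 0.00 and -0.13, then -0.12 and -0.16, in NBTII-FGFR1, and -0.08 at 0 h and 0.07 and -0.09 at 6 h in NBTII. The part of RNA quality in this pattern was not tested further.

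Of the 936 calls in NBTII, 691 were calls of the same direction in NBTII-FGFR1, which is 73.8% of the NBTII calls and 20.4% of the 3382, and 14 were called in opposite directions.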
